A study of Rattus norvegicus with 16 samples.

Results

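The data compared here are the livers of 4 rats given the dithiolethione TBD, the 1,2-dithiole-3-thione with a tert-butyl group at position 5, and of 4 rats given only its vehicle, saturated sucrose. They are 8 of the 16 arrays of a study that also had 4 animals given D3T, the unsubstituted dithiolethione ring, and 4 given oltipraz (OLT, the 4-methyl-5-pyrazinyl member of the same ring family). Members were chosen by the sample titles, and the titles of the sucrose group call it untreated. All animals were male F344 rats of 6 weeks on arrival, weighing 80 to 100 g and housed singly. Each received vehicle or 0.3 mmol/kg of a compound by gavage every other day for 5 days, 3 doses in all, and the liver was taken 24 h after the last dose. Whole liver was used, so every value is an average over hepatocytes and all other liver cells, at 1 dose and 1 time.

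Dithiolethiones are studied as cancer chemopreventive agents because they raise the liver's capacity to detoxify reactive chemicals. In the textbook pathway, the transcription factor NRF2 is held in the cytoplasm by KEAP1, a sensor with reactive cysteines. When these are modified, NRF2 enters the nucleus, binds antioxidant response elements and drives glutathione transferases, quinone reductase and related enzymes. The liver has further xenobiotic sensors, among them the nuclear receptors CAR and PXR and the aryl hydrocarbon receptor (AhR), which drive sets of cytochromes P450.

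The arrays gave log2 expression values, and 5323 probe sets lay high enough to be tested while 3417 did not. A difference is called here where limma's adjusted p was under 0.05 over all tested probe sets. Hepatocyte identity was plain in every animal: albumin (Alb) lay between 15.34 and 15.94, and the 18 hepatocyte markers summed to 17.72 to 17.83 in vehicle and 17.68 to 17.87 with TBD (log2 of the summed linear values). Vehicle replicates 2 and 4 stood apart from vehicle replicates 1 and 3, at -38.8 and -38.5 against -17 and -22.9 on the first principal component. TBD replicate 4 lay lowest of the 8 arrays on the second component, at -21.8. Replicate numbers were taken only as names of animals.

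With TBD, 693 probe sets differed from vehicle, which is 13.0% of those tested. Of these 189 were higher and 504 lower, and 311 differed at least 2-fold, 77 upward and 234 downward. Over 3104 named genes, 87 were higher (2.80%) and 311 lower (10.0%). The groups did not overlap in 762 probe sets, or 14.3%, and the median difference of all tested probe sets was -0.02. The excess of falls depended on scaling, since after a renewed quantile normalization 312 of 695 called probe sets were higher and 383 lower. The number of falls also moved with single animals, while falls still outnumbered rises. Without vehicle replicate 2, 143 were higher and 319 lower, and without vehicle replicate 4, 164 were higher and 330 lower. Leaving out vehicle replicates 2 and 4 together gave 279 called, 111 higher and 168 lower, and 144 of the 398 called genes were then still called in the same direction. Without TBD replicate 4, 814 were called and 356 of the 398 genes were shared.

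**Figure D1:**
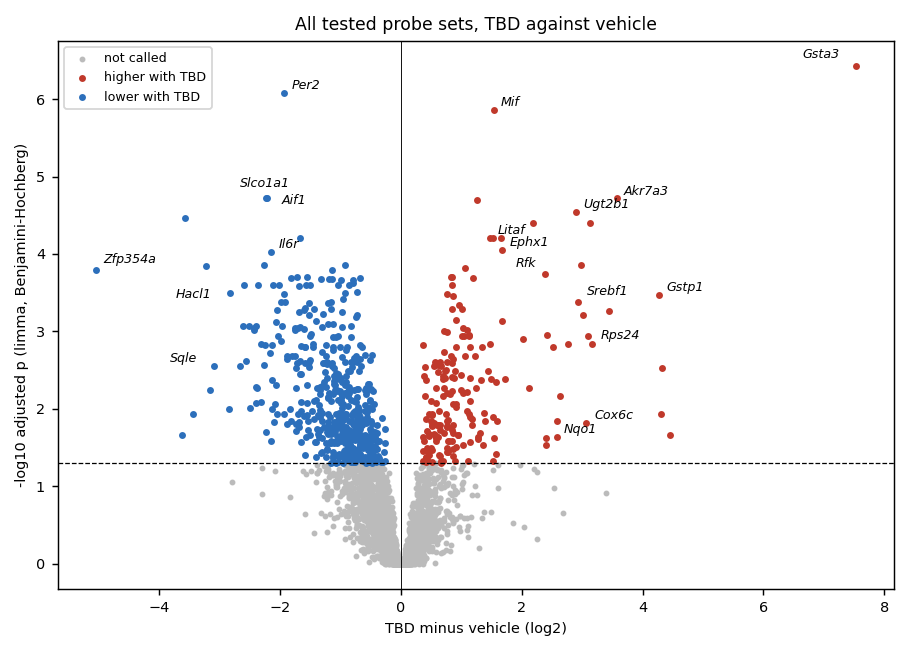
Every tested probe set, by its TBD minus vehicle difference (log2, horizontal axis) and the -log10 of its adjusted p (limma, vertical axis). Red points are the 189 higher and blue points the 504 lower probe sets, the dashed line is adjusted p 0.05, and the rise of Gsta3 by 7.54 lies farthest from the rest.

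Of 53 listed NRF2 targets, 34 were tested, and 11 were higher and 4 lower with TBD. Among all genes 2.80% were higher and 10.0% lower. The median difference of the 34 was 0.43 log2, beside -0.02 for all tested probe sets. To show matches to the core of the antioxidant response element, the start regions of 3 of these genes are printed first. NRF2 binding was not measured. The regions run from 250 bases before to 50 after the RefSeq transcription start (assembly GRCr8). Capitals mark the core TGACNNNGC on either strand. They are Gsta3 at chr9:31154739-31155038 on the plus strand, Gstp1 at chr1:210769656-210769955 on the minus strand and Gclm at chr2:213031885-213032184 on the plus strand, each 5′ to 3′ along its gene.
Gsta3: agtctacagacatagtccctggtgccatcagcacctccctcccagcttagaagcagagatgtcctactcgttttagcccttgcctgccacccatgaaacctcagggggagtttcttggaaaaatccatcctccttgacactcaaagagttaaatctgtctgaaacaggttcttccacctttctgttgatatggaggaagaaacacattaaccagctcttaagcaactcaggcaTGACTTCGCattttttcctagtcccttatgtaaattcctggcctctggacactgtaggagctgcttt
Gstp1: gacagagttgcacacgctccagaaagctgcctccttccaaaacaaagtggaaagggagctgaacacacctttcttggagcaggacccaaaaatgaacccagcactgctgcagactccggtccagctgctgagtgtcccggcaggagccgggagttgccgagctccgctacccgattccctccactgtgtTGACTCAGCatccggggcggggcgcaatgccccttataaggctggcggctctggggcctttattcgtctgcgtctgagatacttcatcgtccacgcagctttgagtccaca
Gclm: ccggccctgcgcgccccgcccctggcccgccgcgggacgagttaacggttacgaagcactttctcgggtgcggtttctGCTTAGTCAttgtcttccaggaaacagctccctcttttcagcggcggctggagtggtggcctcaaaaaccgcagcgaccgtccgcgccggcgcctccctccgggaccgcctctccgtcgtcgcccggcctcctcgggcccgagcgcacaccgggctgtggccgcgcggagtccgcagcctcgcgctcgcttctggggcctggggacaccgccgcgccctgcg
The core lies 17 bases before the start in Gsta3, 61 before it in Gstp1 and 172 before it in Gclm, where it is on the opposite strand. Such a core occurs in 4038 of 33469 promoters of this length, or 12.06%. It occurs in 10 of the 28 NRF2 list genes that have a promoter sequence (35.7%), and in 2 of the 12 of these called with TBD. Gsta3 and Gstp1 were called and Gclm was not, and the windows of Nqo1, Akr7a3 and Ephx1 hold no such match.

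The highest rises among the named genes were those of Gsta3, Gstp1 and Akr7a3, enzymes that conjugate or reduce electrophiles. Genes of other kinds came next: Rps24 (3.16), Cox6c (3.06) and Srebf1 (2.93), described below. Gsta3, an alpha-class glutathione transferase active on aflatoxin epoxide, lay at 3.31, 2.98, 3.25 and 3.27 in the 4 vehicle livers and at 9.66, 11.02, 10.82 and 11.46 with TBD. The groups were far apart, and their means differed by 7.54 ± 0.45 log2 (SE of the fit, adjusted p = 3.69e-07). All 4 vehicle values were below their array's median, so the size of this fold, 186, depends on how the background was modelled. Its 2 other tested probe sets differed by 4.33 (adjusted p = 0.00298) and by 2.2 (adjusted p = 0.0603).

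Gstp1, the pi-class transferase, measured 6.33, 6.14, 6.04 and 6.02 in vehicle and 8.56, 10.69, 10.99 and 11.39 with TBD. Every TBD animal was above every control and replicate 1 was the lowest by over 2 log2 units, with a difference of 4.27 ± 0.59 (adjusted p = 0.000336). Akr7a3, the aflatoxin aldehyde reductase, rose from 8.37, 8.48, 8.43 and 8.56 to 11.47, 12.01, 12.43 and 12.2. The rise was 3.57 ± 0.32 (adjusted p = 1.91e-05), without overlap. Ephx1, the microsomal epoxide hydrolase, went from 11.17, 11.12, 11.34 and 11.15 to 12.36, 13.12, 13.24 and 12.77, a rise of 1.68 ± 0.19 (adjusted p = 8.89e-05). Its groups did not overlap.

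Nqo1, the quinone reductase most often used as an NRF2 readout, was uneven. Its vehicle values were 4.77, 4.3, 4.39 and 4.02, and with TBD it lay at 4.53, 7.56, 6.9 and 8.79. Replicate 1 lay inside the vehicle range and the rest were above it, so the rise of 2.58 ± 0.69 (adjusted p = 0.0228) rested on 3 animals. The call was lost without vehicle replicate 2 (2.55, adjusted p = 0.0597), without vehicle replicate 4 (2.46, adjusted p = 0.0623) and without TBD replicate 2 (2.37, adjusted p = 0.0678). A limma fit of only the 8 arrays compared also lost it (adjusted p = 0.0916), as did leaving out vehicle replicates 2 and 4, or 1 and 3, together.

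Further risen members were Aldh1a1, a retinal dehydrogenase (1.58 ± 0.32, adjusted p = 0.00448), Tkt, transketolase of the pentose phosphate pathway (1.37 ± 0.32, adjusted p = 0.0114), and the transferases Gstt1, Gstm1 and Gstm2. The Tkt groups overlapped, with TBD replicate 4 at 9.08 and vehicle replicate 4 at 9.36. The Tkt call was lost in a limma fit of only the 8 arrays compared and without vehicle replicates 1 and 3 together. Its other tested probe set did not pass (1.03, adjusted p = 0.0537). The smallest of the 11 rises was that of Akr7a2, at 0.47 log2, which lost its call without any one of vehicle replicates 2 and 4 and TBD replicates 1 and 3. Of the 11 risen genes, TBD replicate 1 showed the smallest move in 6 and TBD replicate 3 the largest in 7. Over all 87 genes called higher, replicates 1 and 4 each had the smallest move in 34.

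The enzymes that make glutathione and its partner system did not pass the test. Gclc, the catalytic subunit of glutamate-cysteine ligase, lay at 7.44, 7.3, 7.43 and 8.07 in vehicle and 7.52, 7.78, 6.87 and 9.69 with TBD. Its modifier subunit Gclm, whose promoter is printed above, lay at 9.73, 9.8, 9.68 and 9.95 and at 9.68, 9.7, 8.95 and 10.46. For both, only replicate 4 was above all controls.

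Txnrd1, thioredoxin reductase, measured 8.28, 7.92, 8.74 and 10.34 with TBD, and Hmox1, the heme oxygenase, 3.59, 3.64, 3.63 and 5.88. Their vehicle values were 8.21, 8.7, 8.54 and 8.48 for Txnrd1 and 3.84, 3.64, 3.8 and 3.8 for Hmox1. Replicate 4 was again the highest, and for Txnrd1 replicate 3 was also just above all controls. The differences were 0.41 for Gclc, -0.09 for Gclm, 0.34 for Txnrd1 and 0.42 for Hmox1 (adjusted p between 0.634 and 1). The 2 other probe sets of Gclm differed by -1.4 (adjusted p = 0.0874) and -0.5 (adjusted p = 0.337), and the mean over its 3 was -0.66 (adjusted p = 0.233). Without replicate 4 those of Gclc, Txnrd1 and Hmox1 became -0.17, -0.17 and -0.15, and that of Gclm was 0.16 without replicate 3 and 0.03 after quantile normalization. In the wider glutathione and thioredoxin list, 0 of 20 tested genes were higher and 1 was lower, with a median of -0.07. These counts stand beside 2.80% higher and 10.0% lower over all genes. The lower gene was catalase (Cat, -0.8).

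The 4 NRF2 list members that fell were Ptgr1, a reductase of lipid-derived enones, Lgals3, galectin-3, Cat, and Aldh3a2, the fatty aldehyde dehydrogenase. Ptgr1 lay at 9.38, 9.74, 9.58 and 9.96 in vehicle and 6.99, 8.8, 7.96 and 7.98 with TBD, a fall by 1.73 with no overlap (SE 0.33, adjusted p = 0.00298). Lgals3 fell by 0.9 (adjusted p = 0.00374) and Aldh3a2 by 0.75 (adjusted p = 0.00065), both without overlap, and the mean over the 2 probe sets of Aldh3a2 did not pass (-0.98, adjusted p = 0.113). The Cat groups overlapped, and its call was lost when any animal but vehicle replicates 1 and 3 and TBD replicate 3 was left out.

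**Figure D2:**
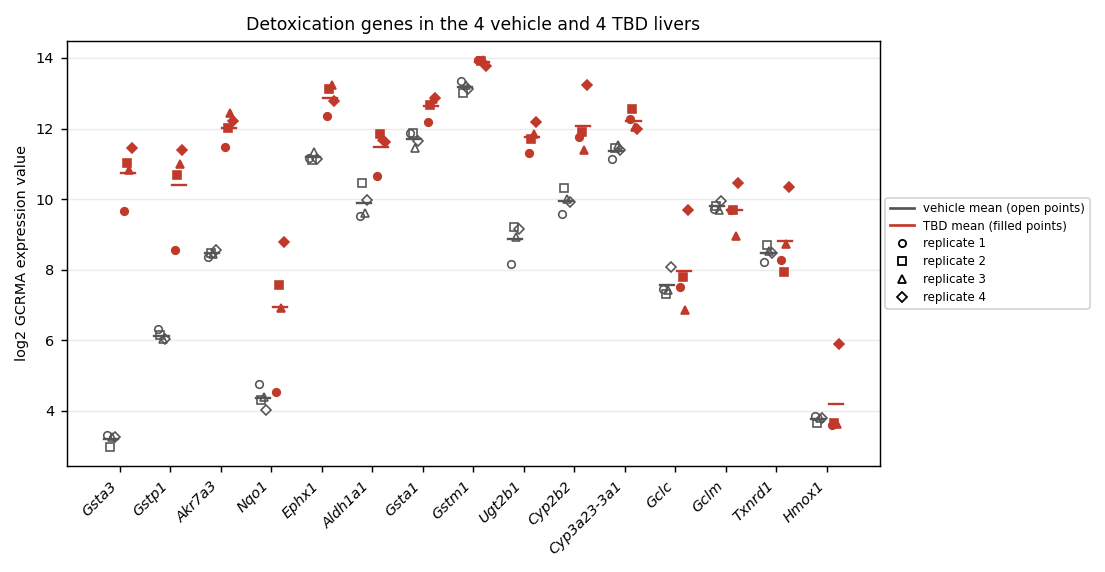
Log2 expression (vertical axis) of 15 detoxication genes (horizontal axis) in each vehicle liver (open grey) and TBD liver (filled red), with marker shapes for replicate numbers and bars for group means. From Gsta3 to Cyp3a23-3a1 the TBD group lies above vehicle apart from Nqo1 replicate 1, while in Gclc, Gclm, Txnrd1 and Hmox1 TBD replicate 4 is the highest point and the other TBD points lie near the controls.

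Glutathione transferases were higher beyond the forms just named. Of 15 tested, 8 were higher and 0 lower, with a median of 0.63 log2, where 2.80% of all genes were higher. Gsta1 measured 11.87, 11.88, 11.46 and 11.65 in vehicle and 12.18, 12.67, 12.83 and 12.86 with TBD (0.92 ± 0.16, adjusted p = 0.0016). Gstm1, the abundant mu-class form, rose from 13.34, 13.02, 13.24 and 13.12 to 13.93, 13.92, 13.94 and 13.78 (0.71 ± 0.11, adjusted p = 0.000976). All 3 probe sets of each of these genes were higher. Gstt2 and Gstt1 of the theta class rose by 1.07 and 1.03. Probes of close family members can cross-hybridise, so the split among alpha and among mu forms is uncertain. The count of 8 stayed within 1.5 times its value under every alternative run.

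Conjugation with glucuronic acid and with sulfate differed. Ugt2b1, a UDP-glucuronosyltransferase, lay at 8.15, 9.22, 8.92 and 9.15 in vehicle and 11.3, 11.71, 11.85 and 12.19 with TBD, 7.48-fold higher (2.9 ± 0.28 log2, adjusted p = 2.85e-05). In its list 2 of 8 genes were higher and 0 lower, beside 2.80% higher over all genes. The second, Ugt2b35 (0.36, adjusted p = 0.0476), lost its call when any animal but vehicle replicate 4 and TBD replicate 1 was left out. Among sulfotransferases and the enzymes that make their sulfate donor, 0 of 9 were higher and 4 lower, beside 10.0% lower over all genes. The bile acid and steroid sulfotransferase Sult2a1 lay at 12.01, 11.93, 11.5 and 12.04 in vehicle and at 9.01, 9.07, 8.83 and 10.85 with TBD. All TBD animals were lower, replicate 4 the least so, by 2.43 in the mean (SE 0.38, adjusted p = 0.000912). The related Sult2a6 fell by 2.14 and Sult2a2 by 2.03, and Sult1c3 by 0.58. The Sult2a genes are close copies whose probes may share signal.

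CAR and PXR target genes were mostly higher among those called. Of 18 tested, 7 were higher and 2 lower, with a median of 0.36 log2, where 2.80% of all genes were higher. Of the 7, Ephx1, Aldh1a1 and Gstm1 are also counted above among the NRF2 targets that rose. Cyp2b2, the classic phenobarbital-inducible P450, measured 9.57, 10.32, 10.0 and 9.91 in vehicle and 11.77, 11.91, 11.38 and 13.24 with TBD. The groups were separate and replicate 4 was the highest (2.12 ± 0.44, adjusted p = 0.00535). Its second probe set rose by 3.44 (adjusted p = 0.000545). Cyp3a23-3a1 rose from 11.13, 11.44, 11.53 and 11.38 to 12.27, 12.56, 12.03 and 11.98 (0.84 ± 0.18, adjusted p = 0.00589), and 2 of its 4 tested probe sets were called, with a mean over the 4 of 0.51. Cyp2a1 rose by 1.14 (adjusted p = 0.0129).

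Por, the reductase that passes electrons to all microsomal P450s, was among the 2 members that fell. It lay at 9.51, 9.65, 9.71 and 9.82 in vehicle and 7.81, 7.84, 8.17 and 8.25 with TBD, lower by 1.65 without overlap (SE 0.28, adjusted p = 0.00156), and all 3 of its probe sets fell. Cyp2c7 fell by 0.77 (adjusted p = 0.0109).

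Over the whole cytochrome P450 list, which holds Por, 4 of 38 genes were higher and 9 lower, with a median of -0.08. Among all genes 2.80% were higher and 10.0% lower. Cyp1a2, the constitutive AhR-regulated P450 of pericentral hepatocytes, measured 11.65, 11.26, 11.37 and 10.65 in vehicle and 9.31, 9.36, 9.36 and 9.84 with TBD. Each TBD value was below each control, 3.4-fold lower in the mean (-1.76 ± 0.28 log2, adjusted p = 0.000969), and its 2 other probe sets differed by -1.92 and -2.57. Cyp17a1, the steroid 17-alpha-hydroxylase, fell by 1.98 (adjusted p = 0.000421). For Cyp2e1, the ethanol-inducible P450, 1 of 3 tested probe sets was called (-0.55, adjusted p = 0.00472), the others differed by -0.01 and -0.29, and the mean over the 3 did not pass (-0.29, adjusted p = 0.115). Cyp2c11, the main male-specific form, did not pass the test. It lay at 13.64, 13.45, 13.79 and 13.67 in vehicle and 13.69, 13.58, 13.57 and 12.82 with TBD (-0.22 ± 0.16, adjusted p = 0.51).

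Fatty acid oxidation and other PPAR-alpha target genes were often lower. PPAR-alpha is the nuclear receptor that drives burning of fatty acids in mitochondria and peroxisomes. Of 42 tested genes, 15 were lower and 2 higher, with a median of -0.48 log2, and 36 of 42 differences were below 0. Over all genes 10.0% were lower, and 1873 of 3104 differences were below 0. The count of 15 lower was 8 in a fit of only the 8 arrays compared and 5 without vehicle replicates 2 and 4.

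Hacl1, a peroxisomal lyase of branched fatty acids, lay at 8.65, 10.3, 9.88 and 9.64 in vehicle and 7.06, 7.08, 6.6 and 6.42 with TBD. The fall by 2.83 had no overlap (SE 0.38, adjusted p = 0.000318). Cyp4a1, the fatty acid omega-hydroxylase used as a PPAR-alpha readout, measured 10.11, 10.76, 10.38 and 10.35 in vehicle and 8.53, 8.74, 8.04 and 9.27 with TBD. It fell by 1.76 (SE 0.28, adjusted p = 0.000894), as did all 3 of its probe sets. Scp2, the peroxisomal thiolase and sterol carrier, fell by 0.79 with an SE of only 0.1 (adjusted p = 0.000234).

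Cpt1a, the gate of mitochondrial fatty acid entry, fell by 1.16 (adjusted p = 0.00789), from 11.4, 11.89, 11.62 and 11.69 to 10.93, 10.52, 10.91 and 9.59. Ehhadh, the peroxisomal bifunctional enzyme, fell by 1.01 (adjusted p = 0.00589). The 2 members that rose were Acaa1b, a peroxisomal thiolase (1.49 ± 0.3, adjusted p = 0.00406), and Plin2, a lipid droplet coat protein. Plin2 lay at 8.24, 8.19, 8.65 and 8.68 in vehicle and 10.5, 9.9, 10.14 and 9.32 with TBD (1.52 ± 0.36, adjusted p = 0.0126).

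Sterol and lipid synthesis gave a mixed picture. Srebf1, the transcription factor of lipogenesis, lay at 4.31, 3.36, 3.56 and 4.45 in vehicle and 7.1, 7.08, 7.0 and 6.24 with TBD (2.93 ± 0.41, adjusted p = 0.000421). It was the only one of 12 lipogenesis genes called, beside 2.80% higher and 10.0% lower over all genes. Sqle, the squalene epoxidase, went the other way, from 6.16, 8.1, 5.97 and 6.91 to 2.9, 2.95, 3.0 and 5.9. Replicate 4 lay just under the lowest control while the rest were near 3 (a fall by 3.1, SE 0.58, adjusted p = 0.00276). Those 3 TBD values were below their array's median, so the size of the fall and its SE depend on how the background was modelled.

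In the cholesterol synthesis list 4 of 15 genes were lower and 1 was higher, with a median of -0.53. Among all genes 10.0% were lower. Besides Sqle the lower ones were Idi1, Ebp and Lss, and only 1 of the 4 was called without any one of vehicle replicates 2 and 4 and TBD replicates 1 and 2, and 2 without vehicle replicate 1 or TBD replicate 3. Fdft1, the squalene synthase, was the higher one (0.77, adjusted p = 0.0144), by 1 of its 4 tested probe sets, and the mean over the 4 was 0.08 (adjusted p = 0.997). The core of the sterol regulatory element, TCACNCCAC, occurs in 0 of the 13 list promoters at hand and in 1.12% of all promoters.

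Genes of bile acid handling were mostly lower among those called. Of 25 tested, 9 were lower and 1, Ephx1, higher, with a median of -0.33, where 10.0% of all genes were lower. Slco1a1, a basolateral uptake carrier of bile acids and organic anions, measured 7.98, 8.78, 8.59 and 8.61 in vehicle and 6.34, 6.17, 5.99 and 6.5 with TBD. The fall by 2.24 (SE 0.2, adjusted p = 1.91e-05) had no overlap and a small spread. Fgfr4, the receptor for the gut hormone that restrains bile acid synthesis, fell by 1.24 (adjusted p = 0.00206), and Nr0b2, the repressor SHP, fell by 1.71 (adjusted p = 0.0115) in all 3 of its probe sets. Cyp7a1, which catalyses the first step from cholesterol to bile acids, did not pass the test. Its values were 7.84, 7.13, 6.41 and 7.36 in vehicle and 4.37, 6.69, 6.33 and 6.1 with TBD, which overlap (-1.32 ± 0.64, adjusted p = 0.223).

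In the glucose list 8 of 26 genes were lower and 1 higher, with a median of -0.06, where 10.0% of all genes were lower. Pck1, the rate-limiting enzyme of gluconeogenesis, was lower in every TBD animal, at 11.19, 11.17, 11.04 and 11.45 against 12.26, 11.99, 12.31 and 12.24. It fell by 0.99 (SE 0.13, adjusted p = 0.000217), close to 2-fold. Pc, pyruvate carboxylase, fell by 1.59 (adjusted p = 0.00258) from 10.43, 10.79, 10.65 and 10.83 to 9.67, 8.43, 9.56 and 8.68. Slc2a2, the hepatocyte glucose transporter, fell by 1.52 (adjusted p = 0.00246) from 11.73, 11.63, 11.52 and 11.91 to 10.83, 10.3, 10.47 and 9.11. Neither gene's groups overlapped.

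Gys2, liver glycogen synthase, fell by 1.25 (adjusted p = 0.00339), and Pfkfb1, which sets the level of a glycolytic activator, by 2.26 (adjusted p = 0.00269). The member that rose was Gckr, the glucokinase regulator (1.15 ± 0.23, adjusted p = 0.00404). Igfbp1, an insulin-repressed binding protein, lay at 9.09, 9.42, 9.23 and 11.12 with TBD against 11.08, 11.91, 11.23 and 11.35. Replicate 4 was inside the control range. The fall by 1.68 (adjusted p = 0.0146) lost its call without vehicle replicate 2 (-1.51, adjusted p = 0.0537) and in a limma fit of only the 8 arrays compared (adjusted p = 0.0599).

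Amino acid catabolism had 7 of 38 genes lower and 3 higher, beside 10.0% lower and 2.80% higher over all genes. The list median was -0.23. Glul, the glutamine synthetase of pericentral hepatocytes, fell by 1.43 (adjusted p = 0.00783; -0.83 over its 4 probe sets) and Oat, ornithine aminotransferase, by 2.13 (adjusted p = 0.01). Cdo1, the cysteine dioxygenase that removes cysteine, measured 13.24, 13.24, 13.3 and 13.28 in vehicle and 12.71, 12.5, 12.73 and 12.25 with TBD (a fall by 0.72, adjusted p = 0.000622). Cth, the gamma-lyase that makes cysteine, lay at 9.42, 9.78, 9.44 and 9.78 and at 10.2, 10.54, 11.01 and 10.83, a rise of 1.04 ± 0.17 (adjusted p = 0.00116). The cysteine-consuming enzyme was lower and the cysteine-forming enzyme higher, each in all 4 animals.

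**Figure D3:**
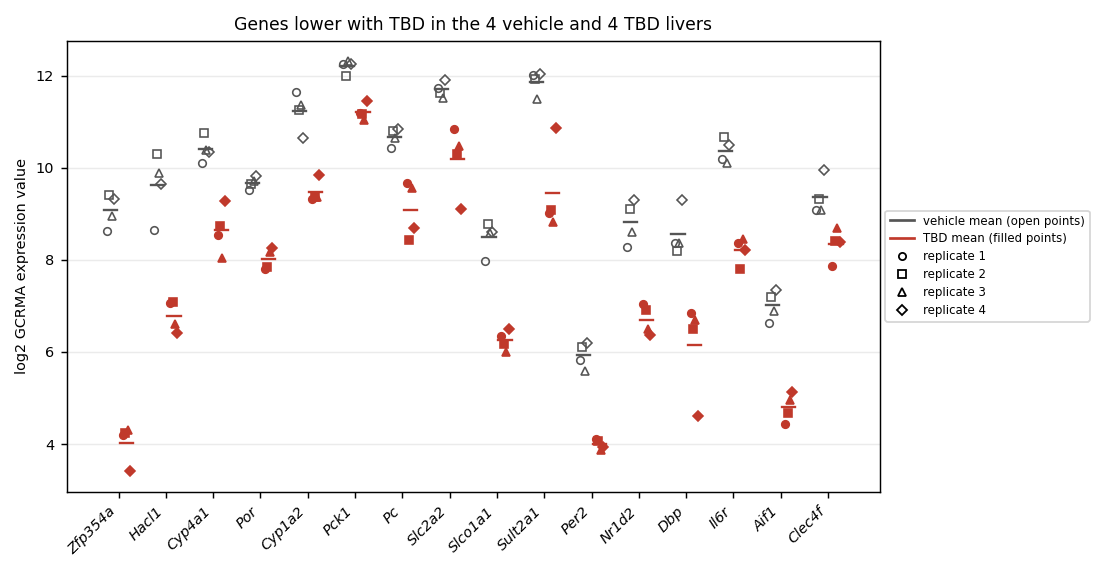
Log2 expression (vertical axis) of 16 genes lower with TBD (horizontal axis) in each vehicle liver (open grey) and TBD liver (filled red), with marker shapes for replicate numbers and bars for group means. The groups do not overlap in any of these genes, Per2 lies between 3.88 and 4.12 with TBD, and TBD replicate 4 is the highest TBD value for Sult2a1 and the lowest for Dbp, Slc2a2 and Zfp354a.

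Genes of the circadian clock fell in 3 of 8 cases, where 10.0% of all genes fell. The liver clock runs on transcription loops in which BMAL1 drives its own repressors and output factors such as DBP. Per2, a core repressor, lay at 5.83, 6.11, 5.59 and 6.2 in vehicle and 4.12, 4.07, 3.88 and 3.94 with TBD. The fall by 1.93 had an SE of 0.13 and the lowest adjusted p among the genes that fell, 8.24e-07. The TBD values lay not far above their arrays' medians, 3.33 to 3.46. The size of the fall and its SE may thus depend on how the background was modelled. Nr1d2, the repressor REV-ERB-beta, fell by 2.12 (adjusted p = 0.000252) from 8.27, 9.1, 8.6 and 9.3 to 7.03, 6.9, 6.49 and 6.37. Dbp fell by 2.39 (adjusted p = 0.00837) from 8.36, 8.18, 8.36 and 9.3 to 6.84, 6.49, 6.7 and 4.6, with replicate 4 the lowest.

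The remaining 5 of 8 clock list genes did not pass, and the list median was -0.14. Bmal1 differed by 0.32 (adjusted p = 0.315). Because its gene had so tight a response, the Per2 start region is printed, with the D-box TTATGTAA, the site that DBP and related factors bind, in capitals (chr9:99496944-99497243, minus strand, GRCr8, along the gene).
Per2: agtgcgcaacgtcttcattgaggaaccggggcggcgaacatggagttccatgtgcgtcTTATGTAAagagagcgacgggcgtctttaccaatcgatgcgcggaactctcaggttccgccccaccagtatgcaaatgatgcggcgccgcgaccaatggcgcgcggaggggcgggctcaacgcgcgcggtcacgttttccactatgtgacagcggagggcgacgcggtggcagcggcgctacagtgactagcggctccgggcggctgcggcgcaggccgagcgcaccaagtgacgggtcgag
The D-box lies 192 bases before the start and is found in 1 of the 6 clock list promoters at hand and in 0.89% of all promoters. The E-box CACGTG is in 1 of the 6, that of Tef, and in 6.42% of all promoters. The labels give no hour of death.

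Genes that differ by sex or need growth hormone fell in 9 of 30 cases and rose in 2, with a median of -0.22. The shares over all genes were 10.0% and 2.80%. Of the 2 rises, that of Hsd11b1, which regenerates active glucocorticoid (0.41, adjusted p = 0.0483), was lost when any animal but vehicle replicate 2 and TBD replicate 3 was left out. Sult2a1, Sult2a2, Slco1a1 and Cyp17a1 among them are described above. Hsd17b2, which inactivates estradiol and testosterone, lay at 12.37, 12.15, 11.99 and 12.3 in vehicle and 9.82, 11.08, 10.42 and 9.19 with TBD, a fall by 2.07 without overlap (SE 0.32, adjusted p = 0.000746). Igf1, the growth factor the liver releases under growth hormone, was just past the threshold (-0.9, adjusted p = 0.042) and lost its call under 16 of the alternatives, among them the fits without any 1 vehicle animal.

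Ribosomal protein genes were called only upward. Of 36 tested, 9 were higher (2.80% over all genes) and 0 lower, with a median of 0.3 log2. Differences were above 0 in 29 of 36, and in 1231 of 3104 over all genes. Rplp0 of the ribosomal stalk measured 9.69, 9.66, 10.01 and 10.01 in vehicle and 10.58, 10.81, 10.93 and 10.91 with TBD (0.97 ± 0.14, adjusted p = 0.000457). Rpl6 rose by 0.87 (adjusted p = 0.000345) and Rpl35 by 1.01 (adjusted p = 0.00116). Rps24 had the largest difference, 3.16 ± 0.53 (adjusted p = 0.00146), from 4.92, 5.4, 3.38 and 3.35 to 6.12, 8.43, 7.27 and 7.87, and 2 vehicle values were below their array's median. The count was 14 after quantile normalization.

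Protein breakdown and energy genes gave few calls. Of 26 proteasome genes 3 were higher and 0 lower, with a median of 0, where 2.80% of all genes were higher. The largest differences were 0.56 log2. Of 34 respiratory chain genes 1 was called, Cox6c of cytochrome oxidase. It lay at 8.28, 7.89, 8.13 and 5.19 in vehicle and 11.15, 11.54, 10.66 and 8.38 with TBD, where replicate 4 was lowest in both groups. Its rise of 3.06 lost the call without TBD replicate 2 (2.69, adjusted p = 0.0516) and in a limma fit of only the 8 arrays compared (adjusted p = 0.0775). Of 20 cell cycle genes only Ccnd1, cyclin D1, was called (a fall by 1.31, adjusted p = 0.0142; -0.74 over its 4 probe sets). Of 8 genes of p53 and DNA damage 0 were called. Over all genes 2.80% were higher and 10.0% lower.

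Among genes outside the detoxication and metabolic lists, Zfp354a, a KRAB zinc finger factor, had the largest fall of all named genes. It lay at 8.63, 9.41, 8.96 and 9.33 in vehicle and 4.19, 4.23, 4.3 and 3.41 with TBD, 33.1-fold lower (-5.05 ± 0.61 log2, adjusted p = 0.00016). Of its TBD values 1 was below its array's median, so the fold and its rank also depend on how the background was modelled. Il6r, the interleukin 6 receptor, measured 10.18, 10.66, 10.11 and 10.49 and then 8.36, 7.8, 8.45 and 8.22 (a fall by 2.15, SE 0.24, adjusted p = 9.35e-05). Tle1, a Groucho corepressor, fell by 2.36 (adjusted p = 0.000252). None of these 3 genes' groups overlapped.

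Mif, a cytokine with tautomerase activity, was among the most even rises, from 9.46, 9.55, 9.53 and 9.62 to 11.21, 11.33, 11.05 and 10.74 (1.54 ± 0.11, adjusted p = 1.38e-06). Rfk, riboflavin kinase of flavin cofactor synthesis, rose from 5.23, 5.85, 5.71 and 4.28 to 7.55, 7.69, 7.93 and 7.42 (2.38 ± 0.29, adjusted p = 0.00018). Litaf, an endosomal membrane protein, rose by 1.48 (adjusted p = 6.17e-05), the small GTPase Rab14 by 2.42 (adjusted p = 0.0011) and the ubiquitin ligase Nedd4 by 2.03 (adjusted p = 0.00125). Orm1, an acute phase glycoprotein, rose by 1.25 (adjusted p = 0.00542), the only one of 22 acute phase genes to do so. Of the 22, 2 were lower, beside 2.80% higher and 10.0% lower over all genes. Slc40a1, the iron exporter ferroportin, fell by 1.52 (adjusted p = 0.000433).

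**Figure D4:**
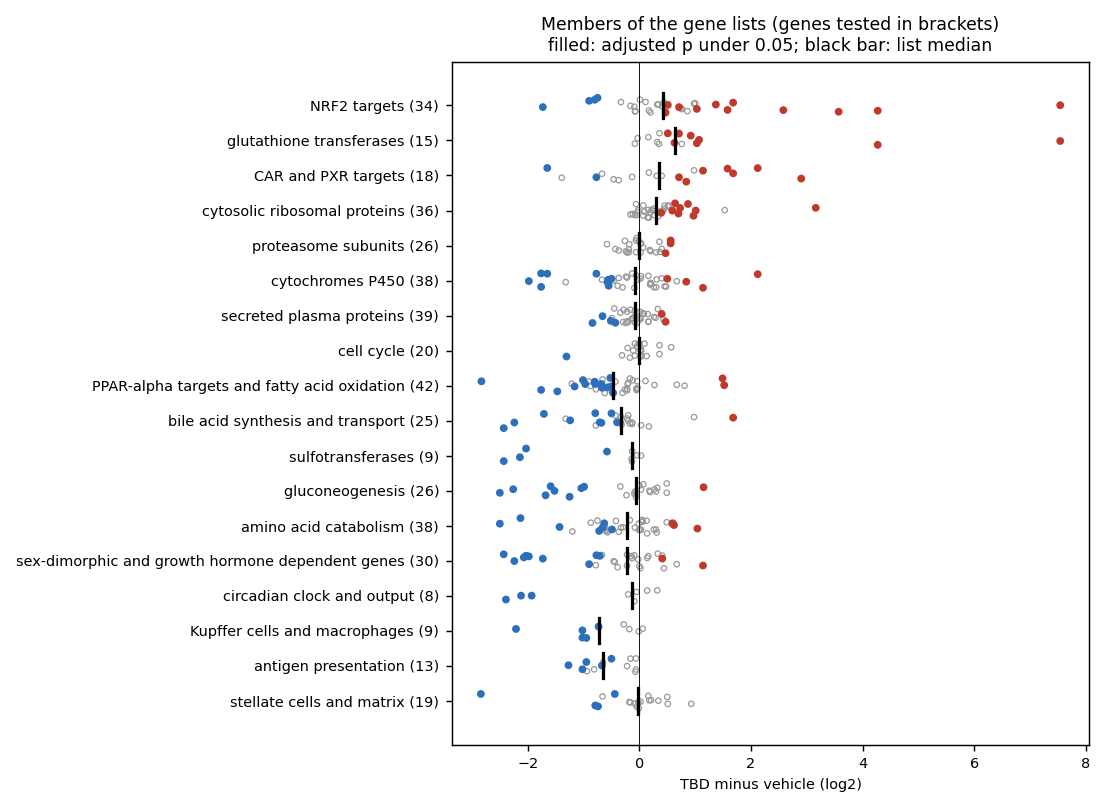
Each point is a tested gene of the named list (rows, number tested in brackets) at its TBD minus vehicle difference (log2, horizontal axis), filled where the adjusted p was under 0.05, and black bars are list medians. Glutathione transferases (8 of 15 filled, all to the right) and fatty acid oxidation (15 of 42 to the left) show the contrast.

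Several markers of liver macrophages were lower. Of 9 Kupffer cell and macrophage genes 5 fell and 0 rose, with a median of -0.73, where 10.0% of all genes fell. Aif1, a macrophage calcium-binding protein, lay at 6.63, 7.19, 6.88 and 7.34 in vehicle and 4.43, 4.68, 4.96 and 5.13 with TBD (a fall by 2.21, SE 0.2, adjusted p = 1.91e-05). Clec4f, a lectin of Kupffer cells, measured 9.09, 9.32, 9.08 and 9.95 and then 7.86, 8.41, 8.68 and 8.39 (a fall by 1.02, adjusted p = 0.00417). Neither overlapped, while Csf1r, Lyz2, Cd14 and C1qc did not pass, at -0.01, 0.06, -0.28 and -0.18. The summed level of the 9 genes was 11.63 to 12.07 in vehicle and 10.86 to 11.47 with TBD. In whole liver, fewer cells of a type and less RNA per cell cannot be told apart. The count was 3 without any one of vehicle replicates 2, 3 and 4 and TBD replicates 1, 2 and 3.

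Antigen presentation genes, 5 of 13 lower and 0 higher with a median of -0.65, share Cd74 and Ctss with the macrophage list, and 2 or 3 were called without any one of the vehicle animals or of TBD replicates 1, 2 and 3. RT1-Bb, an MHC class II chain, fell by 1.27 (adjusted p = 0.00445; -0.74 over its 3 probe sets). The counts here stand beside 10.0% of all genes lower. Summed levels of other cell types overlapped between the groups. Sinusoidal endothelial markers (1 of 9 lower, the hyaluronan receptor Lyve1, whose call was lost without any one of vehicle replicates 2 and 4 and TBD replicate 1) ran from 9.12 to 9.56 in vehicle and 8.76 to 9.47 with TBD, and stellate cell and matrix genes (4 of 19 lower) from 12.88 to 13.06 and 12.85 to 13.22. Of the 4 stellate and matrix genes, 1 was called without any one of vehicle replicate 4 and TBD replicates 1 and 3, and 2 without vehicle replicate 2 or TBD replicate 4. Of 9 lymphocyte genes only Cd53, a leukocyte tetraspanin, was called (-0.3, adjusted p = 0.0487), a call lost without any 1 TBD animal or any one of vehicle replicates 1, 2 and 4. The cholangiocyte (8), neutrophil (3) and red blood cell (2) genes had 0. The part of cell numbers in the other results was not tested.

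TBD was compared with its 2 related compounds at the same dose and time, as 2 pairs, each adjusted over all tested probe sets. TBD carries a tert-butyl group at the position where OLT carries a pyrazinyl group, and OLT has a methyl group in addition, while D3T has the bare ring. Against OLT 3 probe sets differed (0.0564%), all lower with TBD, and 145 had an unadjusted p under 0.05. Against D3T 35 differed (0.658%), 25 higher and 10 lower with TBD, and 534 had an unadjusted p under 0.05. Single animals moved these counts, to 6 against OLT without TBD replicate 4, and against D3T to 19 without TBD replicate 3 or D3T replicate 3, 22 without TBD replicate 4 and 23 without D3T replicate 2. Of the 398 genes called against vehicle, the 95% interval of TBD minus OLT lay within 1 log2 unit either way for 338, and that of TBD minus D3T for 318.

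The 3 probe sets called against OLT were all those of Cyp1a2. The one with the highest mean lay at 9.31, 9.36, 9.36 and 9.84 with TBD and 12.11, 11.77, 12.29 and 11.8 with OLT. The groups did not overlap, and their means differed by -2.53 ± 0.28 log2 (adjusted p = 0.000728). The vehicle mean, 11.23, fell between the 12 of OLT and the 9.46 of TBD. With D3T it was 9.03 ± 0.66 (SD, n = 4), and the difference to TBD was 0.43 with a 95% interval from -0.17 to 1.03. The call against OLT held under every alternative run.

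TBD and D3T differed in several P450 and conjugation genes. Cyp3a2, a male-predominant steroid hydroxylase, measured 12.83, 12.89, 13.6 and 13.28 with TBD and 11.14, 11.41, 10.77 and 10.64 with D3T (2.16 ± 0.19, adjusted p = 0.000101). The vehicle values, 13.35, 13.95, 13.45 and 13.7, overlapped those of TBD. Cyp3a23-3a1 was 1.39 higher with TBD than with D3T (adjusted p = 0.00162) and Ugt2b1 1.95 higher (adjusted p = 0.00405). Msmo1, a sterol methyl oxidase, lay at 8.02, 8.07, 8.87 and 8.15 with TBD and at 5.72, 5.42, 6.1 and 5.45 with D3T (2.6 ± 0.37, adjusted p = 0.00384). Id2, an inhibitor of helix-loop-helix factors, was 1.71 higher (adjusted p = 0.00559).

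Lower with TBD than with D3T were Pck1 and Ptgr1 among others. Pck1 measured 12.15, 12.37, 12.27 and 12.04 with D3T, against the TBD values above (-0.99 ± 0.13, adjusted p = 0.00162). No TBD animal reached the D3T range, and the D3T mean of 12.21 was close to the 12.2 of vehicle. Ptgr1 differed by -2.02 (adjusted p = 0.00984) and Hsd17b2 by -1.77 (adjusted p = 0.0183). The call of Hsd17b2 was lost when D3T replicate 2 or 3 was left out. For Msmo1, Cyp3a2 and Pck1 every alternative kept the call.

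The NRF2 genes gave no called difference between TBD and either compound other than Ptgr1. Ephx1 differed by -0.03 against OLT (95% interval -0.43 to 0.36) and by -0.08 against D3T (-0.48 to 0.32). For Gsta3 the intervals ran from -0.5 to 1.41 against OLT and from -1.72 to 0.19 against D3T. Gstp1 was the least settled. It lay at 10.41 ± 1.27 with TBD, 8.33 ± 1.21 with OLT and 12.51 ± 0.45 with D3T (SD, n = 4 each), with intervals from 0.82 to 3.33 and from -3.36 to -0.85 that leave out 0 before adjustment, and adjusted p of 1 and 0.157.

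**Figure D5:**
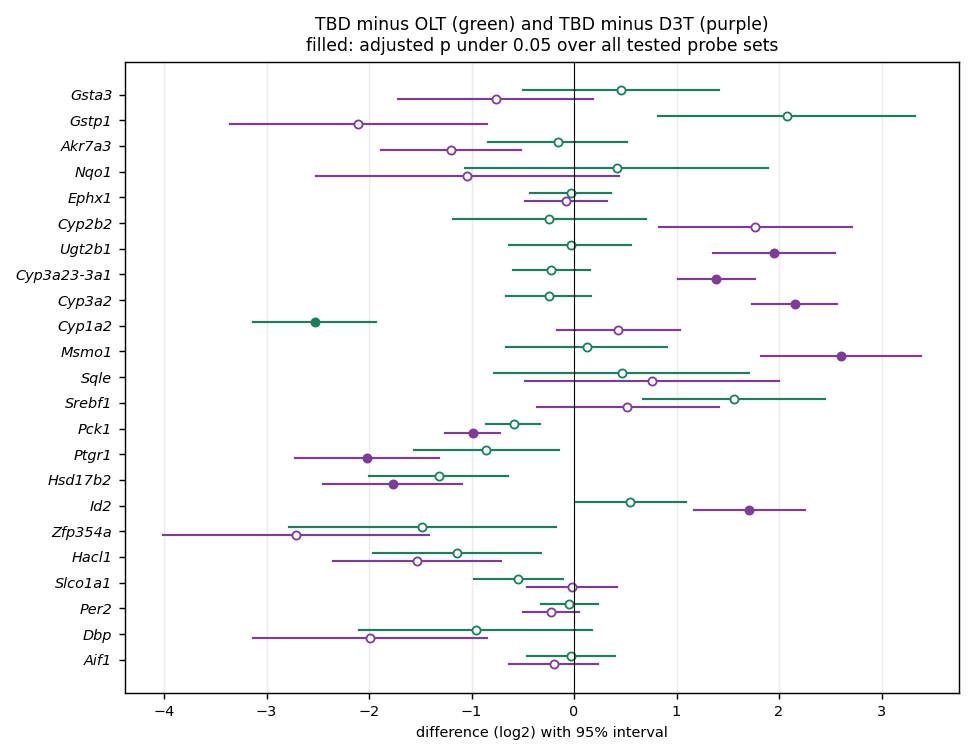
Differences (log2, horizontal axis) of TBD minus OLT (green) and TBD minus D3T (purple) for 23 genes (rows), with 95% intervals, filled where the adjusted p was under 0.05. Against OLT only Cyp1a2 is filled, and against D3T the filled points include Cyp3a2, Msmo1 and Ugt2b1 on the right and Ptgr1, Hsd17b2 and Pck1 on the left.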

How the data were processed

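RNA from the livers of 16 rats was hybridised to 1-colour Affymetrix arrays, 4 per group. The authors deposited log2 values per probe set. They come from GCRMA, according to the submitters' processing notes, and its version was not stated. Its background model squeezes low values together and so sets the folds of dim genes. The platform annotation pairs 7006 probe sets with a single gene symbol, and only these were named; 308 have more than 1 symbol and 1426 lack any. Of the 7006, 6985 matched a RefSeq gene table (GRCr8). No scan dates were used.

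Probe sets above the 40th percentile of the array, in no fewer than 4 of the 16 arrays, were tested. Group means were fitted over all 16 arrays with limma 3.58.1 in R 4.3.3, two-sided, with Benjamini-Hochberg adjustment over 5323 probe sets. The 4 arrays of a group come from separate animals. For genes with several tested probe sets, the brightest stood for the gene. Errors of differences are SEs of the fit. Figures used Python 3.11.15 and matplotlib 3.10.9. The fit was tested on simulated data. Promoter sequences are RefSeq's (GRCr8).

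The members and gene lists were chosen with earlier results of these data known, and lists are described by counts and medians without a test. Genes were eligible for naming if among the 25 largest called rises or falls whose groups did not overlap, among up to 6 called members of each list in each direction, in a set taken whatever they showed, or among the 8 largest differences each way from OLT and D3T. The genes printed are a choice among these, made with their values known, as was that of the promoters shown. Ugt1a6 and Cd68 have no probe set with a single symbol. Alternatives covered filters, variance priors, scaling, thresholds and arrays left out.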

Additional observations from a re-analysis of the deposited data

Results flagged for a closer look

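In 314 groups of 4 values, those of the named genes in vehicle and in TBD, 22 single animals stood apart from the other 3 of their group by Dixon's ratio, past its 95% critical value. Chance gives about 1 in 20 groups for the 4 animals of a group together, and so a smaller share for any named animal. Of the 22, 12 were on TBD replicate 4, 4 on vehicle replicate 1, 2 each on vehicle replicates 2 and 4, and 1 each on vehicle replicate 3 and TBD replicate 3. Over all tested probe sets, TBD replicate 3 stood apart most often, in 299 (5.62%), and TBD replicate 4 in 136 (2.55%).

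TBD replicate 4 was the highest for Hmox1 (5.88, next 3.64), Sqle (5.9, next 3), Igfbp1 (11.12), Sult2a1 (10.85), Orm1 (12.55), Akr1c14, a hydroxysteroid dehydrogenase (11.28), and Cyp1a2 (9.84). It was the lowest for Dbp (4.6, next 6.49), Zfp354a (3.41), Srebf1 (6.24), Cyp2c11 (12.82) and Gstm1 (13.78). In Sqle, Sult2a1, Igfbp1 and Cyp1a2 this animal lay nearer to vehicle than its group, and in Dbp and Zfp354a farther from it. TBD replicate 3 was the highest for Msmo1 (8.87).

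Among the controls, vehicle replicate 4 was lowest for Cox6c (5.19, next 7.89) and highest for Dbp (9.3). Vehicle replicate 1 was lowest for the transcriptional coregulator Cited2 (5.03), Cyp2a1 (7.03), Cyp4f4 (10.42) and Foxa3 (4.84). Vehicle replicate 2 was lowest for Oat (9.44) and for the apolipoprotein Apoc1 (12.37), and vehicle replicate 3 for lanosterol synthase, Lss (6.14).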

How the results depend on the processing

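The 693 called probe sets became 361 (119 higher, 242 lower, 93 list genes against 141) when only the 8 arrays were fitted, 318 (99, 219, 77) at adjusted p under 0.01, and 1333 (502, 831, 248) with array weights. Centring the array medians gave 426 with 283 lower, and quantile normalization 312 higher. Without vehicle replicates 2 and 4 together, chosen after seeing the data, 279 remained called (111, 168, 61 list genes). Leaving out 1 array gave 462 to 814 called, 143 to 237 higher and 319 to 577 lower. For TBD against D3T, 35 became 8, 12 and 152 in the first 3 settings, 13 after centring and 117 with a covariate for the 40th percentile of each array (chosen after seeing the data), and 19 to 34 with 1 array left out. For TBD against OLT, 3 became 3 to 6 with 1 array left out. Deviations of same-numbered vehicle and TBD arrays correlated at 0.32, -0.3, -0.15 and 0.22. Vehicle replicate 1 correlated at 0.34 with TBD replicate 2 and at -0.34 with TBD replicate 4. So few values cannot decide whether replicate numbers pair the animals. A replicate block gave 630 called. Of 157 genes named by the rule against vehicle, 145 were called, 61 of them under every alternative, 84 lost the call under at least 1, and 5 turned direction. Those 5 were not called: Gclm (0.03 after quantile normalization, 0.03 with weights, 0.16 without TBD replicate 3), Tjp1 (0.15 after quantile normalization), Txnrd1 (-0.08 with weights, -0.17 without TBD replicate 4), Gclc (-0.17) and Hmox1 (-0.15), the last 2 without TBD replicate 4. Without OLT replicate 1 and TBD replicate 4 together, chosen after seeing the data, Gclc, Txnrd1 and Hmox1 were again -0.17, -0.17 and -0.15. With 1 array left out, Gclc ranged up to 0.77, Gclm from -0.35, Txnrd1 up to 0.64 and Hmox1 up to 0.62. The causes were not tested. The 4 animals per group limit precision, as does low signal over background for dim genes.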
